A study of Mus musculus with 12 samples.

Results

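The 27 genes described here encode the pathway that makes cholesterol from acetyl-CoA and the proteins that control SREBP2, the transcription factor that governs it. They were listed by name and matched by symbol to the Ensembl genes of the count tables, which hold 49585 genes, and all 27 were found. The list holds 20 enzymes, 6 genes of SREBP2 control, and the sterol carrier *Stard4*. The study sequenced RNA from the adrenal cortex of 12 mice, 1 library per mouse, in 3 groups of 4. LFD mice received a low-fat diet (named a normal diet in the labels) for 20 weeks, HFD mice a high-fat diet for the same 20 weeks, and HFD + IPE mice the high-fat diet with icosapent ethyl, a purified ethyl ester of eicosapentaenoic acid, added during the last 10 weeks. The LFD and HFD mice were male and their feeding began at 6 weeks of age per the study's methods. Those methods repeat neither age nor sex for the icosapent ethyl feeding. The study describes wild-type C57BL/6J mice, whereas the labels give the genotype Fads2-/- for every mouse. *Fads2* was expressed in each mouse, from 452 to 2181 CPM (counts scaled to the library size), so the groups are treated here as diets only. The cortex was cut away from the medulla under a microscope. The labels number the LFD mice 2, 5, 6, and 7 and the mice of each other group 1 to 4, and values per mouse are given in that order.

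Cholesterol synthesis starts with acetyl-CoA, passes through mevalonate and the isoprenoid diphosphates to squalene, and then through lanosterol and a series of demethylations, reductions, and isomerizations to cholesterol. When sterols in the membrane of the endoplasmic reticulum are low, the escort protein SCAP carries SREBP2 to the Golgi, where the proteases MBTPS1 and MBTPS2 release its active part. INSIG proteins hold SCAP back when sterols are plentiful. The adrenal cortex turns cholesterol into steroid hormones and draws it from lipoproteins, from stored esters, and from its own synthesis.

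All 27 genes passed the filter on low counts in each comparison. The libraries held from 34785979 to 67295963 counts, and 26 of the 27 genes had at least 242 counts in every mouse. *Fdps* had only 12 to 70. Defining markers of adrenocortical cells were abundant in all mice, with a summed level of 6 such genes between 37459.8 and 84779 CPM. Markers of chromaffin cells, the cells of the medulla, were also present, with a sum of 8 genes from 5026 to 17825 CPM in LFD mice, from 2457 to 7909 in HFD mice, and from 4463 to 8666 in HFD + IPE mice. In bulk RNA of this kind, fewer cells of a type and less RNA per cell cannot be told apart.

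Promoters were searched for motifs of SREBP2 and of the factors that commonly act beside it, NF-Y and Sp1. RefSeq promoter sequences (GRCm38.p6, 250 bases before to 50 after the start) were matched for 23 of the 27 genes, and not for *Fdps*, *Fdft1*, *Sqle*, and *Stard4*. Searched on both strands, the sterol regulatory element TCACNCCAC occurred in the promoter of *Hmgcs1* alone, against 1.24% of all 32851 promoters. The NF-Y box CCAAT occurred in 19 of 23, against 37.4% of all promoters and 37.0% of those of genes with a mean of at least 100 counts. Sp1 boxes (GGGCGG) occurred in 20 of 23, against 35.7% of all promoters and 62.9% of those of genes at that level. The E-box form TCACGTGA occurred in none of the 23 and in 0.974% of all promoters. The promoters of 3 genes are printed 5′ to 3′, that of *Hmgcs1* for its sterol regulatory element and those of *Lss* and *Mvd* because they had the smallest p-values between HFD and LFD mice. Capitals mark the matches.
Hmgcs1: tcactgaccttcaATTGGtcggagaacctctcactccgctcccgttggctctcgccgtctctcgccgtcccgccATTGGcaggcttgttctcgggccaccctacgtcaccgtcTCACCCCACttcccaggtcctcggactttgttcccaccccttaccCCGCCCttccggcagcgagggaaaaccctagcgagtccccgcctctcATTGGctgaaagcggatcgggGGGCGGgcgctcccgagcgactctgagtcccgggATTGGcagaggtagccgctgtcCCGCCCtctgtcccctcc
Lss: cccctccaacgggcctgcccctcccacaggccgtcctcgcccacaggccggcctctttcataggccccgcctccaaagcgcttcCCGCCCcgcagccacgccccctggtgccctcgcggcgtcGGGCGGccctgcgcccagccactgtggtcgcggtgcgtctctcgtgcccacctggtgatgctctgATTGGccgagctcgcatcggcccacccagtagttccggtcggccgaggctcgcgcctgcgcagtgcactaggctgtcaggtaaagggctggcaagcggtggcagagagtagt
Mvd: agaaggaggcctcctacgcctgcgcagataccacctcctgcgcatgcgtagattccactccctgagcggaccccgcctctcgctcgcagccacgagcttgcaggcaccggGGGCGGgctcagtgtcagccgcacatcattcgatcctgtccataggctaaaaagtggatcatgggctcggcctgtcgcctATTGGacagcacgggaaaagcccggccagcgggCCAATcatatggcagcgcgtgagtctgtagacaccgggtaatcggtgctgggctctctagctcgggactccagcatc
The *Hmgcs1* promoter lies at chr13:119690101-119690400 on the plus strand, the *Lss* promoter at chr10:76531355-76531654 on the plus strand, and the *Mvd* promoter at chr8:122443373-122443672 on the minus strand. In *Hmgcs1*, TCACCCCAC began 137 bases before the start, among 4 NF-Y boxes and 3 Sp1 boxes. The *Lss* sequence held 1 NF-Y box 62 bases before the start and 2 Sp1 boxes. The *Mvd* sequence held 2 NF-Y boxes, of which the nearer began 27 bases before the start, and 1 Sp1 box. These matches are descriptions of the sequence, and none of the printed matches overlapped another.

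Levels were compared between genes as CPM per kilobase of annotated exon. In LFD mice the order was headed by *Dhcr7*, the reductase of the last step of a branch to cholesterol, at 100.7 ± 26.5 CPM per kilobase (SD, n = 4). *Insig1* followed at 33.2 ± 12.1 and the methylsterol oxidase gene *Msmo1* at 23.6 ± 4.88, and this pair overlapped in its spread. *Srebf2*, which encodes SREBP2, at 19.3 ± 2.97, *Hmgcs1* at 18.5 ± 3.56, and *Cyp51* at 18.4 ± 8.29 CPM per kilobase could not be ordered beyond their spread either. The lower end held *Mbtps2* at 2.67 ± 0.288, *Lss* at 2.32 ± 0.385, and *Fdps* at 0.0801 ± 0.0206 CPM per kilobase. The *Fdps* level is uncertain, because 26.7% of its exonic bases are shared with the overlapping gene *Gm43738*, which had no counts, and because reads aligned below a quality of 20 were not counted. *Tm7sf2* shares 12.1% of its exonic bases with *Vps51*, and *Mbtps2* shares 28.4% with *Yy2*, which had no counts. Reads that fit both *Acat2* and its near copy *Acat3* could be missing from the *Acat2* counts, which was not examined.

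HFD and LFD mice were compared to ask how diet-induced obesity changes transcription in the cortex. No sterol gene passed an adjusted p of 0.05 by edgeR in the 8 mice, while 1.45% of the 15909 genes tested did (0.974% higher and 0.471% lower in HFD mice). Their fold changes lay mostly above 0. The fitted log2 fold change was above 0 for 21 of the 27 genes, against 48.2% of all genes, and its median was 0.46, against -0.015 for all genes. The median was 0.26 without HFD 3, 0.28 without HFD 4, and 0.31 without LFD 2. Among the 20 enzymes the median was 0.59, which corresponds to a fold of 1.51. At an unadjusted p below 0.05, 11 of the 27 genes were higher and 1 was lower, against 12.4% and 12.5% of all genes. *Mvd*, *Lss*, *Nsdhl*, and *Scap* (4 genes) were higher in each HFD mouse than in every LFD mouse, as were 7.71% of all genes tested. In the GENCODE annotation of GRCm38, *Mvd* (ENSMUSG00000006517) lies at chr8:122433601-122443422 on the minus strand and *Lss* (ENSMUSG00000033105) at chr10:76531588-76557138 on the plus strand. *Nsdhl* (ENSMUSG00000031349) lies at chrX:72918557-72958514 and *Scap* (ENSMUSG00000032485) at chr9:110333288-110384950, both on the plus strand. *Lss* came nearest to passing, at an adjusted p of 0.0615 by edgeR, followed by *Mvd* (0.0644), *Scap* (0.0712), and *Fdps* (0.0719).

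The spread between HFD mice was wide and shared by many of these genes. HFD 3 or HFD 4 had the highest level of all 12 mice for 18 of the 27 genes, and LFD 2 had the lowest for 16. The summed level of the 20 enzymes was 990.3, 1273, 1301, and 1643 CPM in LFD mice, 1337, 1732, 2927, and 3022 CPM in HFD mice, and 1540, 1218, 1713, and 2742 CPM in HFD + IPE mice. HFD 3 and HFD 4 thus stood far above every LFD mouse, HFD 2 just above, and HFD 1 inside the LFD range. Of the 20 enzymes, 3 in HFD 1, 11 in HFD 2, 15 in HFD 3, and 15 in HFD 4 were above all 4 LFD mice. The ratio of the highest to the lowest mouse was wider within the HFD group than within the LFD group for 20 of the 27 genes.

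**Figure D1:**
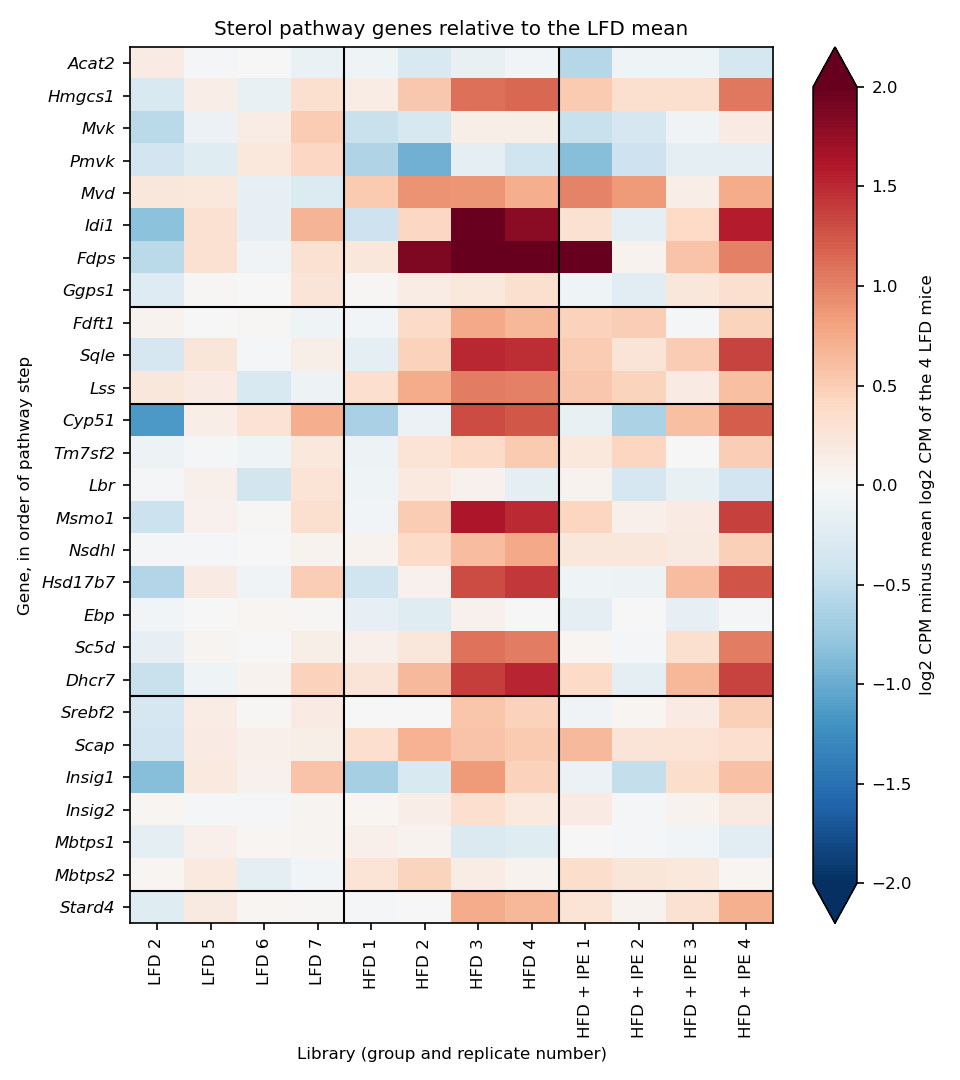
Level of each of the 27 genes in each of the 12 mice, as log2 CPM minus the mean log2 CPM of the 4 LFD mice (red higher, blue lower, colours saturated at -2 and 2), with horizontal lines between pathway steps and vertical lines between groups. The columns of HFD 3, HFD 4, and HFD + IPE 4 are red over most of the enzymes, whereas HFD 1 resembles the LFD mice, and LFD 2 is blue in many rows.

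Leaving out HFD 1 changed the result. Without it, 11 of the 27 genes passed the threshold, all higher in HFD mice, against 3.31% of 16096 genes called higher and 2.39% called lower in that fit. They were *Hmgcs1*, *Mvd*, *Fdps*, *Fdft1*, *Sqle*, *Lss*, *Msmo1*, *Nsdhl*, *Sc5d*, *Dhcr7*, and *Scap*, with adjusted p-values from 0.0174 to 0.048 by edgeR. None passed when any other mouse was left out, but neither did any gene at all without HFD 2, 3, or 4 or LFD 5, 6, or 7, and 78 genes passed without LFD 2. With all mice, DESeq2 called 8 of these genes higher (*Hmgcs1*, *Mvd*, *Fdps*, *Lss*, *Msmo1*, *Nsdhl*, *Dhcr7*, and *Scap*), against 6.49% of the 15599 genes it adjusted.

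The mevalonate and isoprenoid step holds 8 genes, of which 5 had a fold change above 0, with a median log2 fold change of 0.45. *Hmgcs1*, the cytosolic synthase that makes the precursor of mevalonate, stood at 67.9, 91.9, 75.3, and 104 CPM in LFD mice and at 92.3, 121, 179.8, and 185 CPM in HFD mice. In HFD + IPE mice it stood at 121, 104, 104, and 173 CPM. Only HFD 1 fell among the LFD mice, and the log2 fold change between HFD and LFD was 0.76 ± 0.23 (SE), at an adjusted p of 0.0964 by edgeR. *Mvd*, which decarboxylates mevalonate diphosphate, was at 8.16, 8.08, 6.23, and 5.75 CPM in LFD mice, at 10.0, 13.0, 12.8, and 11.5 CPM in HFD mice, and at 13.8, 12.6, 7.61, and 11.7 CPM in HFD + IPE mice. No HFD mouse overlapped an LFD mouse, with a log2 fold change of 0.74 ± 0.17 (SE), and HFD + IPE 3 alone of its group lay within the LFD range.

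*Idi1*, the isomerase that sets up the isoprenoid building blocks, had the widest spread of the well counted genes. It was at 7.93, 17.4, 12.5, and 22.5 CPM in LFD mice, at 10.5, 18.7, 54.9, and 48.9 CPM in HFD mice, and at 17.4, 12.4, 18.5, and 41.6 CPM in HFD + IPE mice. HFD 3, HFD 4, and HFD + IPE 4 stood apart, while the other mice of the groups on a HFD lay within the LFD range. Its log2 fold change between HFD and LFD was 1.14 ± 0.52 (SE), at an adjusted p of 0.210 by edgeR. *Fdps*, which makes farnesyl diphosphate, had the largest fitted change of the list on very few counts. Its level was 0.226, 0.407, 0.312, and 0.404 CPM in LFD mice, 0.383, 1.20, 1.36, and 1.58 CPM in HFD mice, and 1.30, 0.342, 0.484, and 0.662 CPM in HFD + IPE mice. HFD 1 again lay in the LFD range, and the log2 fold change was 1.74 ± 0.43 (SE).

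The other genes of this step had fold changes near or below 0. *Pmvk*, the kinase that phosphorylates phosphomevalonate, was at 13.9, 15.5, 21.2, and 24.2 CPM in LFD mice and at 11.96, 9.41, 16.0, and 13.8 CPM in HFD mice, with 10.1, 13.7, 16.1, and 15.9 CPM in HFD + IPE mice. The groups overlapped and the log2 fold change between HFD and LFD was -0.55 ± 0.22 (SE), at an adjusted p of 0.164 by edgeR. *Mvk*, the kinase before it, ranged from 28.1 to 58.6 CPM in LFD mice and from 30.2 to 44.7 in HFD mice. *Acat2*, here the thiolase that joins acetyl-CoA units and not the esterifying enzyme of a similar name, averaged 41.9 ± 3.72 CPM on LFD and 37.8 ± 2.84 CPM on HFD (SD, n = 4). *Ggps1*, which leads away from sterols to geranylgeranyl diphosphate, was at 35.1 ± 5.09 and 39.5 ± 3.33 CPM. None of these 3 had an unadjusted p below 0.05.

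The step from farnesyl diphosphate to lanosterol has 3 genes, and all 3 were higher on HFD with an unadjusted p below 0.05. *Sqle*, the squalene epoxidase, stood at 20.4, 30.7, 25.4, and 27.9 CPM in LFD mice, at 22.9, 35.6, 73.4, and 71.7 CPM in HFD mice, and at 36.9, 30.9, 36.9, and 65.7 CPM in HFD + IPE mice. Its log2 fold change between HFD and LFD was 0.95 ± 0.34 (SE), at an adjusted p of 0.142 by edgeR, and HFD 1 lay within the LFD range. *Lss*, which closes the rings to lanosterol, was at 29.0, 27.8, 20.1, and 23.1 CPM in LFD mice, at 31.4, 41.2, 50.05, and 49.8 CPM in HFD mice, and at 35.9, 33.7, 27.6, and 37.4 CPM in HFD + IPE mice. HFD 1 was the lowest HFD mouse and still above the highest LFD mouse, and the log2 fold change was 0.77 ± 0.18 (SE). *Lss* was the only listed gene to pass the threshold when the 3 groups were fitted together (adjusted p = 0.0386 by edgeR) or when genes with low counts were kept (adjusted p = 0.0498 by edgeR). *Fdft1*, the squalene synthase, averaged 38.3 ± 1.58 CPM on LFD and 53.1 ± 12.4 CPM on HFD (SD, n = 4), with HFD 1 at 37.0.

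**Figure D2:**
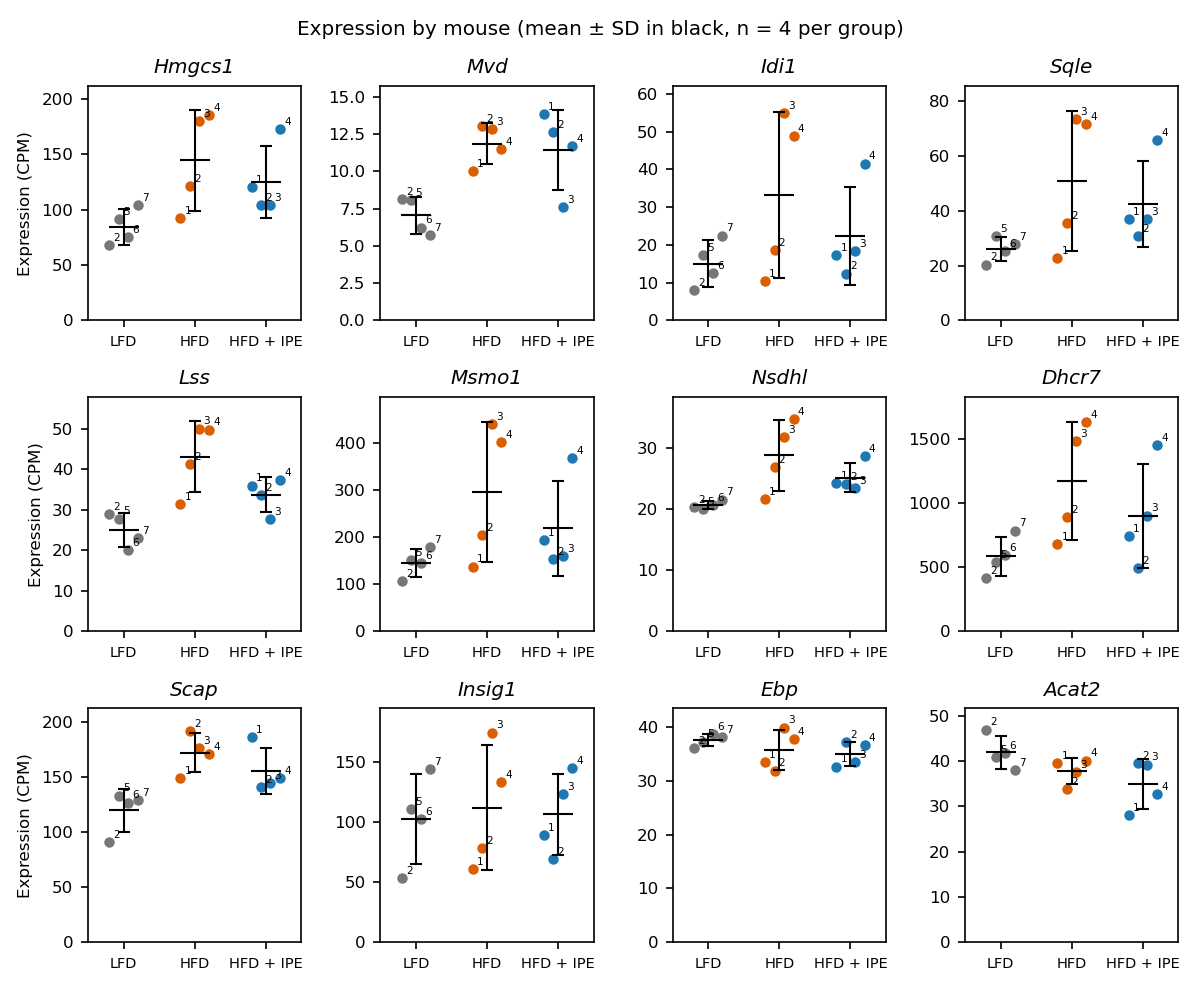
Level in CPM of 12 of the 27 genes in each mouse (points, with the replicate number), with the mean and SD of each group of 4 in black, on axes that start at 0. *Mvd*, *Lss*, *Nsdhl*, and *Scap* do not overlap between LFD and HFD mice, *Idi1*, *Sqle*, and *Msmo1* are high in HFD 3, HFD 4, and HFD + IPE 4, and *Ebp* lies between 31.8 and 39.8 CPM in all mice.

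From lanosterol to cholesterol, 7 of 9 genes had a fold change above 0, with a median log2 fold change of 0.53. *Msmo1*, which oxidizes the methyl groups that are to be removed, stood at 106, 151, 144, and 179 CPM in LFD mice, at 137, 203, 439.7, and 401 CPM in HFD mice, and at 193, 152, 160.4, and 367 CPM in HFD + IPE mice. HFD 3, HFD 4, and HFD + IPE 4 stood apart, and the log2 fold change between HFD and LFD was 1.02 ± 0.34 (SE), at an adjusted p of 0.127 by edgeR. *Nsdhl*, the dehydrogenase that follows it, was at 20.3, 20.0, 20.6, and 21.5 CPM in LFD mice, at 21.6, 26.9, 31.7, and 34.7 CPM in HFD mice, and at 24.2, 24.1, 23.4, and 28.6 CPM in HFD + IPE mice. Neither group on a HFD overlapped the LFD mice, although HFD 1 exceeded LFD 7 by very little, and the log2 fold change between HFD and LFD was 0.47 ± 0.14 (SE), at an adjusted p of 0.102 by edgeR.

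*Dhcr7*, the most abundant of the 27, was at 418, 540.2, 597, and 788 CPM in LFD mice, at 683, 895, 1486, and 1636 CPM in HFD mice, and at 744, 498, 905, and 1457 CPM in HFD + IPE mice. HFD 1 lay below LFD 7, and the log2 fold change between HFD and LFD was 0.999 ± 0.29 (SE), at an adjusted p of 0.0921 by edgeR. *Sc5d*, the sterol desaturase of a late step, was at 39.3, 45.4, 43.8, and 47.6 CPM in LFD mice, at 47.0, 51.6, 93.2, and 89.0 CPM in HFD mice, and at 45.3, 43.3, 54.6, and 89.6 CPM in HFD + IPE mice. The same 3 mice stood out, and its log2 fold change between HFD and LFD was 0.66 ± 0.22 (SE), at an adjusted p of 0.122 by edgeR. *Hsd17b7*, the ketoreductase of sterol demethylation, averaged 14.4 ± 4.35 CPM on LFD and 24.1 ± 13.4 CPM on HFD (SD, n = 4), and *Cyp51*, the lanosterol demethylase, averaged 81.0 ± 36.6 and 117 ± 69.7 CPM. For *Cyp51* the LFD mice alone ranged from 33.0 to 122 CPM, which left the 95% interval of its log2 fold change between -0.58 and 1.63. The reductases *Tm7sf2* (17.9 ± 1.89 and 21.7 ± 3.79 CPM) and *Lbr* (20.8 ± 3.75 and 20.6 ± 2.46 CPM), of which LBR is also a receptor for nuclear lamin, overlapped between the groups. The isomerase *Ebp*, at 37.5 ± 1.09 and 35.7 ± 3.71 CPM, was the steadiest gene of the list, and its 95% interval ran from -0.29 to 0.13.

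The 6 genes of SREBP2 control had a median log2 fold change of 0.20 between HFD and LFD mice, beside 0.59 for the 20 enzymes, a difference that was not tested. *Scap* was the only one of 6 with an unadjusted p below 0.05. *Scap* stood at 91.3, 133, 127, and 129.5 CPM in LFD mice, at 149.7, 192, 177, and 171 CPM in HFD mice, and at 187, 142, 145, and 149 CPM in HFD + IPE mice. Every mouse on a HFD was above every LFD mouse, and the log2 fold change between HFD and LFD was 0.51 ± 0.13 (SE). *Srebf2* itself was at 108, 153, 140.0, and 155 CPM in LFD mice, at 138, 139, 201, and 189 CPM in HFD mice, and at 132, 141, 154, and 192 CPM in HFD + IPE mice, with overlap of all groups. *Insig1* was at 53.5, 110.5, 102, and 144 CPM in LFD mice, at 61.3, 78.2, 174, and 134 CPM in HFD mice, and at 89.1, 69.1, 123, and 145 CPM in HFD + IPE mice. Its groups overlapped throughout, and the log2 fold change between HFD and LFD was 0.12 with a 95% interval from -0.70 to 0.94. *Insig2* ranged only from 51.7 to 67.1 CPM over the 12 mice, *Mbtps1* from 144 to 188 CPM, and *Mbtps2* from 23.8 to 36.4 CPM. For the protease genes the log2 fold changes between HFD and LFD were -0.091 (*Mbtps1*) and 0.22 (*Mbtps2*). *Stard4*, which carries cholesterol between membranes, averaged 21.9 ± 2.61 CPM on LFD and 28.5 ± 7.96 CPM on HFD (SD, n = 4), with HFD 3 and HFD 4 the highest of the group.

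**Figure D3:**
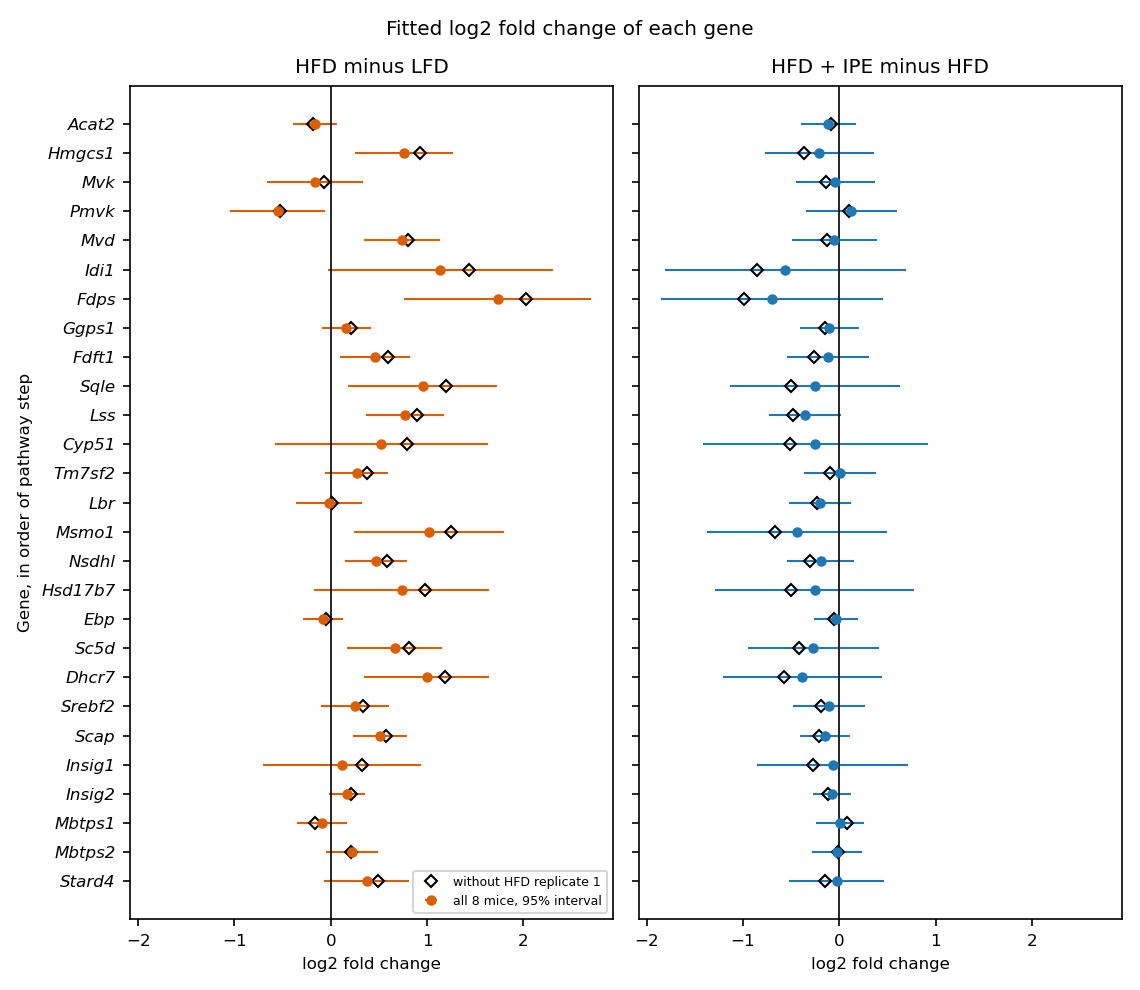
Fitted log2 fold change of each of the 27 genes with its 95% interval, HFD minus LFD on the left and HFD + IPE minus HFD on the right, with open diamonds for the fit without HFD replicate 1. On the left most enzymes lie to the right of 0 and move further without that mouse, and on the right 24 of 27 genes lie to the left of 0 with intervals that include 0.

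Marker genes of the cell types in the tissue also varied between the mice. The summed adrenocortical markers (*Nr5a1*, *Cyp11a1*, *Star*, *Hsd3b1*, *Cyp21a1*, and *Mc2r*) were at 37459.8, 44399, 47455, and 62241 CPM in LFD mice, at 48409, 62745, 84779, and 81275 CPM in HFD mice, and at 63583, 51443, 64441, and 78204 CPM in HFD + IPE mice. LFD 2, lowest for 16 of the sterol genes, was also lowest for these markers, and HFD 3 and HFD 4 were highest for both. Between HFD and LFD mice all 6 adrenocortical markers had a fold change above 0. Their median log2 fold change was 0.42, beside 0.46 for the sterol genes. Of the 6, 4 were higher at an unadjusted p below 0.05 by edgeR, against 12.4% of all genes. All 8 chromaffin markers had a fold change below 0, with a median of -1.28. Of the 8, 6 were lower at an unadjusted p below 0.05 by edgeR, against 12.5% of all genes. As with the sterol genes, none of these markers passed the threshold by edgeR, while DESeq2 called 1 adrenocortical marker higher and 4 chromaffin markers lower. Over all genes DESeq2 called 2019 of 15599 in either direction, of which 1012 were higher. The summed level of 4 fibroblast and capsule markers was 229 to 379.9 CPM in LFD mice and 136 to 214 CPM in HFD mice, without overlap. Endothelial markers (499.9 to 786 and 554 to 721 CPM), zona fasciculata markers (9004 to 11260.2 and 10330.4 to 16152 CPM), zona glomerulosa markers (551 to 686 and 561 to 832 CPM), and mesothelial markers (1.995 to 7.05 and 1.94 to 3.41 CPM) overlapped. The part of these cell types in the sterol gene levels was not tested.

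**Figure D4:**
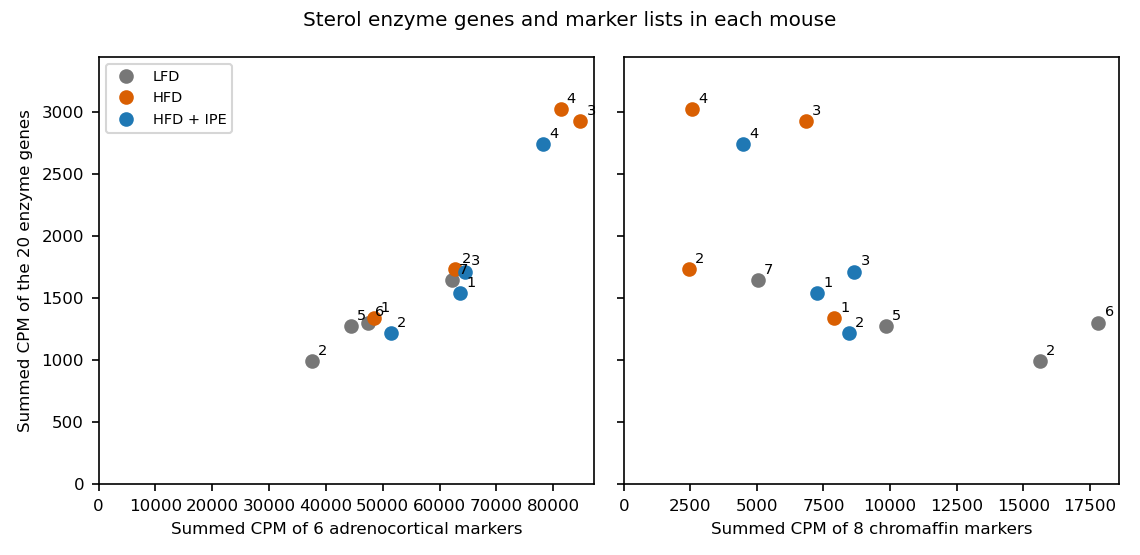
Summed CPM of the 20 enzyme genes in each mouse (vertical axis) against the summed CPM of 6 adrenocortical markers (left) and of 8 chromaffin markers (right), coloured by group and labelled by replicate number. HFD 3, HFD 4, and HFD + IPE 4, with 2742 to 3022 CPM of enzyme transcripts, are the mice with the most adrenocortical marker RNA, and the LFD mice spread from 5026 to 17825 CPM of chromaffin markers.

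Icosapent ethyl on a HFD was compared with HFD alone, which shares the 4 HFD mice with the comparison above. No gene passed the threshold by edgeR among 15913 tested (0%), 221 had an unadjusted p below 0.05 (1.39%), and DESeq2 called 6 genes (0.0377%), none of them a sterol gene. The fold change was below 0 for 24 of the 27 genes and above 0 for 3, against 51.1% of all genes above 0, and the median was -0.12, against 0.0040 for all genes. That median was -0.23 without HFD 1, -0.050 without HFD 3, -0.065 without HFD 4, and -0.19 without HFD + IPE 4. No sterol gene had an unadjusted p below 0.05, and none of the 27 kept the groups apart, while 0.484% of all genes did so upward and 0.66% downward. The largest fitted differences were those of *Fdps* (-0.70, 95% interval -1.85 to 0.45), *Idi1* (-0.56, -1.81 to 0.69), and *Msmo1* (-0.44, -1.37 to 0.50). *Lss* came closest to the threshold without adjustment, at -0.36 with an interval from -0.73 to 0.017 (adjusted p = 0.9997 by edgeR). *Dhcr7* was at -0.38 (-1.21 to 0.45) and *Sqle* at -0.26 (-1.14 to 0.63). For *Fdps*, *Idi1*, *Msmo1*, *Dhcr7*, and *Sqle* these intervals include both 0 and a lowering of the size of the difference between HFD and LFD mice. The interval of *Lss* includes 0 and ends just short of such a lowering, at -0.73 beside a difference of 0.77. Cell type markers were also compared between these 2 groups. All 6 adrenocortical markers had a fold change below 0 (median -0.13) and all 8 chromaffin markers one above 0 (median 0.51), none with an unadjusted p below 0.05. The 3 mesothelial markers had a median log2 fold change of 2.11, with 2 of the 3 at an unadjusted p below 0.05, and their summed level was 4.20 to 21.6 CPM in HFD + IPE mice, above the 1.94 to 3.41 CPM of HFD mice without overlap. The part of these cells in the sterol gene levels was not tested. HFD + IPE 4 kept 15 of the 20 enzymes above all LFD mice, whereas HFD + IPE 1 had 9 and HFD + IPE 2 and 3 had 6 each.

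The 3 genes above 0 were *Pmvk* (0.13), *Tm7sf2* (0.011), and *Mbtps1* (0.0083) on the log2 scale. Narrower intervals were obtained for the genes with little spread. Between HFD + IPE and HFD mice, *Ebp* lay between -0.26 and 0.20, *Insig2* between -0.27 and 0.12, *Mbtps1* between -0.24 and 0.26, and *Scap* between -0.41 and 0.11 on the log2 scale. With the replicate numbers as pairs, no gene was called and the smallest unadjusted p of a sterol gene was 0.0509, for *Dhcr7* (edgeR).

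HFD + IPE mice were also compared with LFD mice. No gene of 15935 passed the threshold by edgeR (0%), 2225 had an unadjusted p below 0.05 (14%), and DESeq2 called 471 (3.08%), none of them a sterol gene. The fold change was above 0 for 21 of the 27 genes, against 49.4% of all genes, with a median of 0.29, against -0.0037 for all genes. Without HFD + IPE 4 the median was 0.13, with 18 of the 27 above 0. At an unadjusted p below 0.05, 9 sterol genes were higher and none was lower, against 7.29% and 6.67% of all genes. *Sqle*, *Nsdhl*, and *Scap* were higher in every HFD + IPE mouse than in every LFD mouse, as were 4.04% of all genes. The largest fitted changes were those of *Fdps* (1.04 ± 0.43), *Sqle* (0.71 ± 0.24), and *Mvd* (0.70 ± 0.21) on the log2 scale (SE). Their adjusted p-values by edgeR were 0.338, 0.267, and 0.260. All 6 adrenocortical markers had a fold change above 0, with a median of 0.31 beside 0.29 for the sterol genes. All 8 chromaffin markers had one below 0, with a median of -0.72. At an unadjusted p below 0.05 by edgeR, 2 of the 6 were higher and 1 of the 8 was lower. The part of these cells in the sterol gene levels was not tested.

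Neighbouring gene lists place the sterol genes in context between HFD and LFD mice. Of 9 genes for the sterol-regulated degradation of pathway enzymes, 8 had a fold change above 0 and 1 below, from -0.55 to 0.65 on the log2 scale. At an unadjusted p below 0.05 by edgeR, 4 were higher and 1 was lower, against 12.4% and 12.5% of all genes. Of the 9, 2 passed the threshold and both rose, against 1.45% of all genes called. These calls and those of *Lipe* and *Abcg1* were each lost when any 1 of HFD 2, 3, or 4 or LFD 5, 6, or 7 was left out, since no gene then passed. *March6*, a ubiquitin ligase that acts on squalene epoxidase, was at 194, 247, 199.6, and 211 CPM in LFD mice and at 311, 347, 307, and 313 CPM in HFD mice. Its log2 fold change, with the SE, was 0.58 ± 0.093, at an adjusted p of 0.0384 by edgeR. *Faf2*, which helps to extract degraded proteins from the membrane, was at 80.9 ± 3.53 and 105 ± 4.71 CPM (SD, n = 4), which made a log2 fold change of 0.36 (adjusted p = 0.0456 by edgeR). In HFD + IPE mice they stood at 280 ± 23.3 and 96.8 ± 10.3 CPM. Among 14 genes of sterol use and export, log2 fold changes ran from -0.92 to 1.59, with 7 above 0 and 7 below. At an unadjusted p below 0.05 by edgeR, 6 of the 14 were higher and 3 lower, against 12.4% and 12.5% of all genes. Past the threshold, 1 rose and 1 fell, against 0.974% and 0.471% of all genes. *Lipe*, the hormone-sensitive lipase that also frees cholesterol from its esters, was at 57.0, 61.0, 52.7, and 51.0 CPM in LFD mice and at 88.9, 104, 115, and 104 CPM in HFD mice. Its log2 fold change, with the SE, was 0.88 ± 0.10, at an adjusted p of 0.0293 by edgeR. *Lipe* is also an adipocyte gene, and the summed level of 6 adipocyte markers was 132 to 239 CPM in LFD and 198 to 267 CPM in HFD mice. Those 6 markers did not move together, with 4 above 0 and 2 below, from -2.14 to 3.19 on the log2 scale. At an unadjusted p below 0.05 by edgeR, 2 of them were higher and 1 was lower.

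*Abcg1*, a cholesterol exporter, was at 23.0, 28.3, 22.8, and 23.5 CPM in LFD mice and at 14.6, 14.2, 13.1, and 10.1 CPM in HFD mice, and its log2 level fell by 0.92 (adjusted p = 0.0384 by edgeR). *Abca1*, another exporter, did not pass, at 235 ± 43.1 and 134 ± 27.4 CPM (SD, n = 4; adjusted p = 0.0551 by edgeR). Macrophages express both, and the summed level of 6 macrophage markers was 339 to 519 CPM in LFD mice and 244 to 286 CPM in HFD mice. Of these 6, *Cd68*, *C1qa*, and *Cd5l* passed the threshold, all lower in HFD mice, against 0.471% of all genes. The part of adipocytes and macrophages in these levels was not tested. No gene passed the threshold among 10 genes of acetyl-CoA supply and SREBP1, where *Acly* (0.73, adjusted p = 0.0951 by edgeR) and *Scd1* (-0.61, adjusted p = 0.0760 by edgeR) had the largest changes. None passed among 11 genes of isoprenoid use, led by *Pggt1b* at 0.39 and *Nus1* at 0.32, or among 7 electron partners and other sterol genes, led by *Sec14l2* at -1.28 and *Cyb5a* at 0.53 on the log2 scale. Between HFD + IPE and HFD mice no gene of any of these lists passed.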

How the data were processed

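Whole-number read counts per gene were deposited by the authors for each of the 12 mice, 1 library each. The authors trimmed reads with cutadapt, aligned them to GRCm38 with STAR, and counted them on GENCODE M12 genes with HTSeq 0.6.1p1, using strand and a minimum alignment quality of 20. The study's text calls the libraries paired-end and the reads single, with 75 bases. Symbols were taken from GENCODE M21 for 49326 of 49585 genes. Groups and replicate numbers came from the labels, and no pair of the 66 library pairs agreed within sampling noise (lowest chi-square per degree of freedom 26.0).

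Each comparison was fitted in the libraries of its 2 groups with edgeR 4.0.16 (limma 3.58.1, R 4.3.3): TMM scaling, filterByExpr at a minimum count of 10, robust quasi-likelihood test, and Benjamini-Hochberg adjustment over all genes tested, with a threshold of 0.05. CPM used TMM library sizes over the 12 libraries. Standard errors and 95% intervals came from the F statistic and its degrees of freedom. DESeq2 1.42.0 was an alternative, and the others were another scaling, library totals, other filters, a fit of all 12 libraries, a replicate block, and leaving out each library. The labels do not say whether the mice were housed or processed together or apart. The study's methods list the icosapent ethyl feeding under other experiments than the LFD and HFD feeding. A difference of cage, cohort, or processing between the groups could not be told apart from diet. The p-values measure the spread between these mice.

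HFD and HFD + IPE share the numbers 1 to 4. Deviations from the group means of same-numbered libraries correlated at r = 0.240, 0.116, 0.340, and 0.632 (all above 0.1), and the block took the numbers as pairs. Other numbers correlated at up to 0.598 (HFD 1 with HFD + IPE 2), and HFD 2 with HFD + IPE 1 at 0.443. The correlations thus do not establish that the numbers are pairs.

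The members, the neighbouring lists, and the marker lists were chosen with earlier results of these data known. By rule, values in each mouse were given for members past the threshold and for the 3 largest changes of each comparison, and for the neighbouring lists those past the threshold or the largest 2. Values in each mouse of *Hmgcs1*, *Lss*, *Nsdhl*, *Scap*, *Dhcr7*, *Pmvk*, *Sc5d*, *Srebf2*, and *Insig1* were added after values were seen. *Faxdc2* was not matched and is not analysed here.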

Additional observations from a re-analysis of the deposited data

Results flagged for a closer look

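In 3 of the 81 combinations of a gene and a group, 1 mouse lay far from the other 3 of its group by Dixon's test at the 95% level. Chance flags about 1 in 20, which is 4.05 of 81. *Scap* was at 91.3 CPM in LFD 2, while the other LFD mice were at 127 to 133 CPM. *Fdft1* was at 37.1 CPM in HFD + IPE 3, against 51.8 to 54.0 CPM in the others of that group. *Nsdhl* was at 28.6 CPM in HFD + IPE 4, against 23.4 to 24.2 CPM in the others.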

How the results depend on the processing

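Between HFD and LFD mice, the count of the 27 sterol genes past the threshold was 0 by edgeR with all mice and moved with the processing. It was 8 with DESeq2, 1 with no filter on low counts, 1 with all 12 libraries in 1 fit, and from 0 to 11 when 1 mouse was left out, with 11 only without HFD 1. Over all genes the count was 230 (155 higher and 75 lower), 2019 with DESeq2, 556 with all 12 libraries, 84 with library totals (40 higher and 44 lower), and from 0 to 918 when 1 mouse was left out. It was 0 without HFD 2, 3, or 4 or LFD 5, 6, or 7, 78 without LFD 2, and 918 without HFD 1, so the calls rested on these mice. Library totals moved the median log2 fold change of all genes by -0.099. The median of the sterol genes stayed above 0 under each alternative run, from 0.26 to 0.57, and from 20 to 23 of them were above 0.

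Between HFD + IPE and HFD mice, no sterol gene passed under any alternative run, and the count above 0, 3 of 27, was 9 with library totals and from 2 to 7 when 1 mouse was left out. When 1 mouse was left out, the median ran from -0.23 to -0.050, *Fdps* from -1.17 to -0.49, *Idi1* from -1.04 to -0.21, *Msmo1* from -0.81 to -0.18, *Dhcr7* from -0.71 to -0.18, and *Sqle* from -0.54 to -0.025. DESeq2 called 6 genes over all. Against LFD mice, no sterol gene passed under any alternative, and over all genes the count was 471 with DESeq2, 2 with all 12 libraries, and from 0 to 1 when 1 mouse was left out. The median of the sterol genes then ran from 0.13 to 0.38, *Fdps* from 0.58 (without HFD + IPE 1) to 1.26, and *Sqle* from 0.42 to 0.83. The replicate block, run for HFD + IPE against HFD, called 0 genes and 0 sterol genes and changed no call.

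Gene by gene, 349 of 378, 372 of 405, and 372 of 378 fits under the alternatives kept the direction and the side of the threshold (HFD against LFD, HFD + IPE against HFD, and HFD + IPE against LFD), and 8, 33, and 6 turned the direction of 3, 10, and 3 genes, none of them past the threshold. With library totals, log2 fold changes turned to -0.0016 for *Insig1* between HFD and LFD, and between HFD + IPE and HFD to 0.024 for *Mvk*, 0.022 for *Mvd*, 0.039 for *Ebp*, 0.011 for *Insig1*, 0.035 for *Mbtps2*, and 0.044 for *Stard4*. When 1 mouse was left out, the ranges that crossed 0 between HFD and LFD were -0.16 to 0.32 (*Insig1*), -0.12 to 0.069 (*Lbr*), and -0.31 to 0.019 (*Mvk*). Between HFD + IPE and HFD they were -0.17 to 0.044 (*Mvk*), -0.15 to 0.10 (*Mvd*), -0.65 to 0.043 (*Cyp51*), -0.098 to 0.10 (*Tm7sf2*), -0.61 to 0.023 (*Hsd17b7*), -0.081 to 0.027 (*Ebp*), -0.27 to 0.23 (*Insig1*), -0.055 to 0.076 (*Mbtps1*), -0.077 to 0.051 (*Mbtps2*), and -0.17 to 0.11 (*Stard4*). Between HFD + IPE and LFD they were -0.025 to 0.16 (*Ggps1*), -0.12 to 0.55 (*Cyp51*), and -0.16 to 0.27 (*Insig1*). The cause of these shifts was not tested. *Fdps* had the lowest depth, with 12 to 70 counts a library.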
